A study of Mus musculus with 6 samples.

Results

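Natural killer (NK) cells read the surface of other cells through a set of inhibitory and activating receptors, most of them C-type lectin-like proteins encoded by the Klr genes. The Klr genes of the mouse lie mainly in 1 stretch of chromosome 6, the NK gene complex, whose gene content and alleles differ between inbred strains. Inhibitory receptors carry a motif that recruits phosphatases when they bind MHC class I or related molecules, and activating receptors signal through small adaptors such as DAP10 and DAP12. Subsets of T cells and of myeloid cells also use some of these receptors.

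The receptors examined here are all genes whose symbol begins with Klr, together with Ncr1, Cd244a, Cd160, Cd226 and Crtam. Gene identifiers of the count table were paired with mouse symbols, and 35 of the 47729 genes met this definition. The set holds 14 Klra genes (encoding the Ly49 receptors), 6 Klrb1 genes (the NKR-P1 receptors), 3 Klrc genes (NKG2), Klrd1 (CD94), Klrk1 (NKG2D), 3 genes of the Klre1 and Klri group, 2 Klrg genes and the 5 receptors outside the Klr name.

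RNA-seq was performed on spleens of 3 female NOD.B10 mice (NOD.B10Sn-H2b/J), the primary Sjögren's syndrome strain, and 3 female BL/10 mice (C57BL10/SnJ), the healthy control strain. NOD.B10 mice carry the NOD genome with the H2b haplotype of the major histocompatibility complex, and BL/10 mice have this haplotype as well. Neither strain was treated, and 1 spleen library was made per mouse. By the sample labels, BL/10 replicates 2 and 3 were 36 weeks old and the other 4 mice 26 weeks, whereas the protocol describes the strains as matched in age. The labels also conflict on the strain itself. The description of each sample and the column of the count table name one strain, and the title and strain field name the other. The strain of the columns was used, and every direction below would be reversed under the titles. Ifi202b, an interferon-inducible gene known to be very low in C57BL/6 mice, had 485 to 838 counts in the NOD.B10 libraries and 0 to 2 in the BL/10 libraries.

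Between 15662712 and 18298451 reads were counted per library. The receptor genes made up from 0.0234% to 0.0331% of these reads, and the ranges of the strains overlapped. Bulk spleen RNA was measured, so fewer cells of a type and less RNA per cell cannot be told apart. Among other cell types, NOD.B10 had higher levels of 16 of 18 T cell markers and lower levels of 12 of 14 neutrophil markers. Their summed levels were 1162 to 1616 CPM (normalized counts scaled to equal library sizes) in NOD.B10 and 533 to 720 CPM in BL/10 for the T cell list, and 2337 to 2698 CPM and 6472 to 13467 CPM for the neutrophil list. Transcripts of pancreas acinar cells summed to 14182, 2162 and 112 CPM in BL/10 replicates 1, 2 and 3 and to 22.9 to 31.2 CPM in the NOD.B10 libraries, and all 13 tested genes of this list were lower in NOD.B10.

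Transcripts of NK receptors differed between the strains in both directions (see the plot of fold changes by family). Of the 35 genes, 32 passed the filter on low counts, and 15 of these passed edgeR's quasi-likelihood test at an adjusted p of 0.05, with 9 higher and 6 lower in NOD.B10. Among all 15330 genes tested, 17.3% were called (9.11% higher and 8.22% lower). For 5 of the tested genes (Klrc3, Klra5, Klra10, Klra11-ps and Klra14-ps) the filter was met in all libraries of NOD.B10 but not of BL/10, so the count over the tested genes is a description only. The 3 NOD.B10 libraries lay above all BL/10 libraries for 11 of the 32 genes and below them for 7, against 20.5% and 17.5% of all genes tested (38% in either direction). The median log2 fold change was 0.14 over the 32 genes and 0.00060 over all genes. An exact two-sided permutation test on 1 gene has a smallest p of 0.1 with 3 libraries in each strain, so the test across all genes was used.

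**Figure D1:**
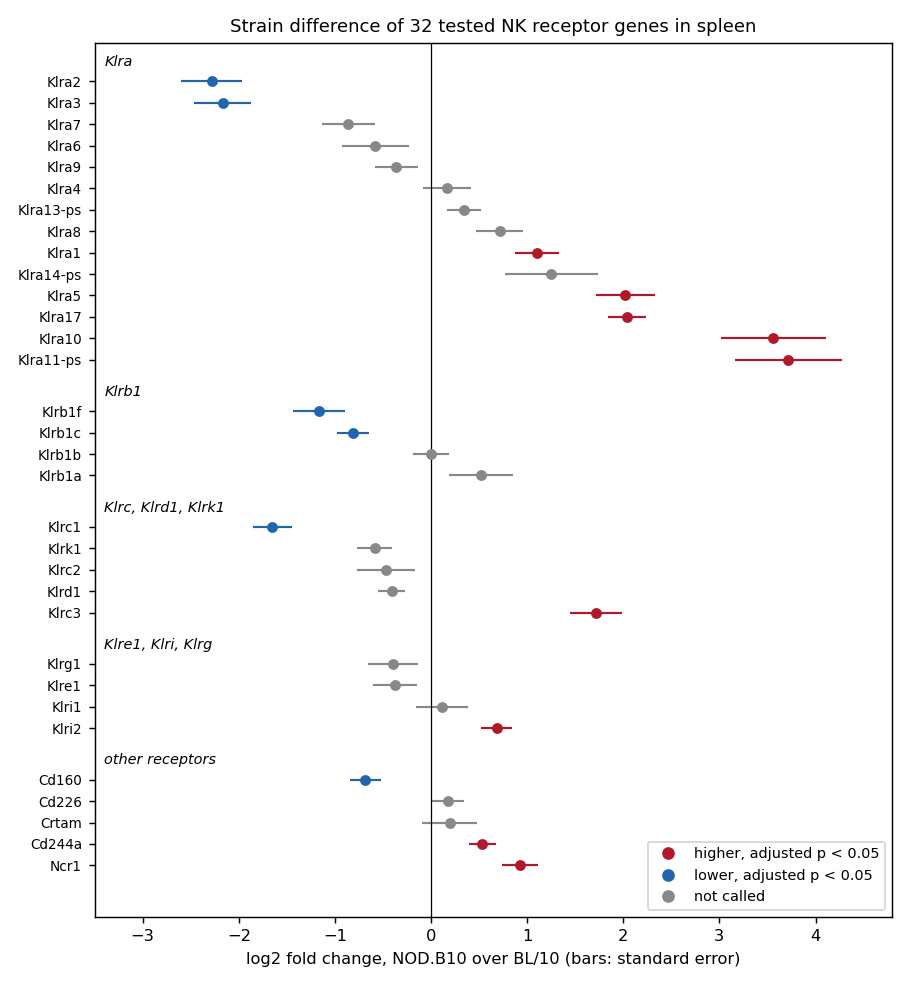
Log2 fold change (NOD.B10 over BL/10, x axis) of the 32 tested NK receptor genes, grouped by family, with standard errors as bars and the edgeR call as color (n = 3 per strain). Higher and lower genes occur side by side in the Klra, Klrc and other receptor groups, from Klra2 (-2.28) to Klra11-ps (3.72, a fitted value that depends on the prior count).

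The Klra genes encode the Ly49 receptors, most of which bind MHC class I. All 14 were tested, with 5 higher in NOD.B10 (Klra17, Klra5, Klra1, Klra10 and Klra11-ps), 2 lower (Klra2 and Klra3) and 7 not called. Among all genes tested, 9.11% were higher and 8.22% lower. Klra5, Klra10 and Klra11-ps met the filter in all libraries of NOD.B10 only, so the balance of higher and lower genes is a description. Klra17 (ENSMUSG00000014543, chromosome 6 from 129831154 to 129876672 of GRCm38) encodes Ly49Q, an inhibitory receptor known from plasmacytoid dendritic cells and other myeloid cells rather than NK cells. Its normalized counts were 31.9, 25.2 and 27.5 CPM in NOD.B10 and 5.97, 9.12 and 5.63 CPM in BL/10. All 3 NOD.B10 libraries stood well above the BL/10 libraries, with a fold change of 4.11 (log2 fold change 2.04, standard error 0.20, adjusted p = 0.000619 in edgeR). Klra5 (ENSMUSG00000030173, chromosome 6 from 129898996 to 129917650), which encodes the inhibitory receptor Ly49E, lies next to Klra17 and had a similar difference at a lower level. It had 3.47, 2.15 and 2.81 CPM in NOD.B10 and 0.869, 0.738 and 0.455 CPM in BL/10 (log2 fold change 2.02, standard error 0.31, adjusted p = 0.00467 in edgeR). The BL/10 values of Klra5 rest on 16, 11 and 8 counts. Klra1, the gene of the inhibitory receptor Ly49A, had 6.72 ± 1.02 CPM in the NOD.B10 libraries against 3.11 ± 0.845 CPM in those of BL/10 (SD, n = 3 each), and its libraries did not overlap (log2 fold change 1.10, standard error 0.23, adjusted p = 0.0163 in edgeR). The call of Klra1 was lost in 3 of the 6 fits without a replicate, with adjusted p up to 0.0715 without NOD.B10 replicate 1.

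The largest decreases among the tested receptor genes were also those of Klra genes. Klra2 (ENSMUSG00000030187, chromosome 6 from 131219223 to 131247362), which encodes Ly49B, an inhibitory receptor known from myeloid cells, lies apart from the other Klra genes. It had 3.77, 2.21 and 1.52 CPM in NOD.B10 and 11.6, 15.1 and 9.83 CPM in BL/10. Every BL/10 library was above every NOD.B10 library, and the level in BL/10 was 4.86-fold that in NOD.B10 (log2 fold change -2.28, standard error 0.32, adjusted p = 0.00319 in edgeR). Klra3 (ENSMUSG00000067591, chromosome 6 from 130323289 to 130337574) encodes Ly49C, an inhibitory MHC class I receptor of NK cells. Its level was 1.32, 1.11 and 0.955 CPM in NOD.B10 and 6.25, 5.63 and 3.35 CPM in BL/10 (log2 fold change -2.17, standard error 0.30, adjusted p = 0.00291 in edgeR). The NOD.B10 libraries of Klra3 were close to each other, and the lowest BL/10 library, replicate 3, was still above them.

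**Figure D2:**
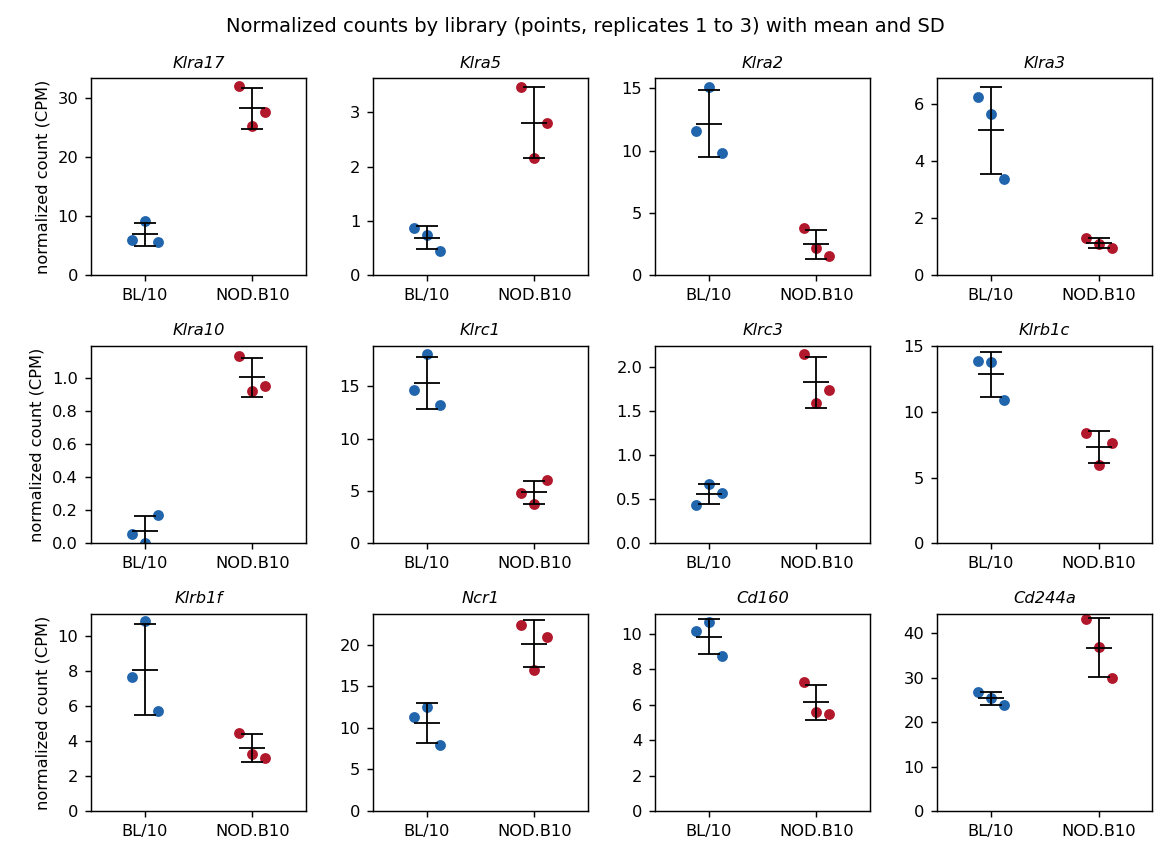
Normalized counts (CPM, y axis from 0) of 12 NK receptor genes in each library, with points for replicates 1 to 3 and black bars for the mean and SD (n = 3 per strain). The 12 genes were picked from the called ones. Their libraries do not overlap between the strains, which holds for 38% of all genes tested. Klra17 had 25.2 to 31.9 CPM in NOD.B10 against 5.63 to 9.12 CPM in BL/10.

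Ly49Q and Ly49B are known from myeloid cells, so the genes of such cells were set beside Klra17 and Klra2. These lists were chosen after the values were seen. Of 10 plasmacytoid dendritic cell genes, 2 were lower in NOD.B10 and none was higher, a share of 20% against 17.3% of all genes tested. The log2 fold change was positive for 4 of the 10. Their summed level was 686 to 877 CPM in NOD.B10 and 1017 to 1492 CPM in BL/10. Siglech, a surface lectin of plasmacytoid dendritic cells, had 43.7 ± 8.77 CPM in the NOD.B10 libraries against 59.6 ± 3.19 CPM in those of BL/10 (SD, n = 3 each) (adjusted p = 0.0717 in edgeR). Of 10 monocyte and macrophage genes, 2 were lower in NOD.B10 (Ly6c2 and Fcgr1) and none was higher, again 20%, and 3 had a positive log2 fold change. The summed level of these 10 genes was 4592 to 5107 CPM in NOD.B10 and 4096 to 4624 CPM in BL/10. Neutrophils are myeloid cells as well, and 12 of the 14 neutrophil markers given above were lower in NOD.B10 (85.7%, median log2 fold change -1.83). The part of these cells in the differences of Klra17 and Klra2 was not tested.

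Reads of Klra10 and Klra11-ps were found almost only in NOD.B10. Klra10 (ENSMUSG00000072718, chromosome 6 from 130269194 to 130281928), the gene of Ly49J, was counted 19, 15 and 17 times in the NOD.B10 libraries, against 1, 0 and 3 times in those of BL/10. The ratio of the summed counts, scaled to library size, was 12.8 with an exact 95% interval from 4.70 to 48.7 that covers counting error only (adjusted p = 0.00478 in edgeR). The pseudogene Klra11-ps was counted 16, 13 and 15 times in the NOD.B10 libraries, against 0, 2 and 1 times in those of BL/10, a ratio of 14.7 with an interval from 4.72 to 74.1 (adjusted p = 0.00436 in edgeR). Both are among the least abundant genes of the set, and reads from sequence that they share with other genes are missing from their counts, as described below. Whether the counted reads of NOD.B10 come from these genes was not tested.

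The other 7 Klra genes did not pass the threshold. Klra8 encodes Ly49H, the activating receptor of a mouse cytomegalovirus protein. It had 6.10, 4.91 and 5.0 CPM in NOD.B10 and 3.26, 4.29 and 2.27 CPM in BL/10, without overlap of the libraries (log2 fold change 0.71, standard error 0.24, adjusted p = 0.0841 in edgeR). Klra4, which encodes the activating receptor Ly49D, had 5.66 ± 1.02 CPM in the NOD.B10 libraries against 5.04 ± 1.5 CPM in those of BL/10 (SD, n = 3 each) (adjusted p = 0.674 in edgeR). Klra7, the gene of the inhibitory receptor Ly49G, gave -0.86 on the log2 scale (standard error 0.28, adjusted p = 0.0701 in edgeR), and DESeq2 gave an adjusted p of 0.0314 for it. Klra6 and Klra9, the genes of Ly49F and Ly49I, had negative log2 fold changes (-0.58 and -0.36), and the pseudogenes Klra13-ps and Klra14-ps had positive ones (0.34 and 1.25).

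Summed over the 14 genes, the Klra level overlapped between the strains, with 79.9, 63.1 and 65.2 CPM in NOD.B10 and 56.1, 64.0 and 40.5 CPM in BL/10. Per length of the genes, Klra17 made up 42.0% ± 1.07 (SD, n = 3) of the summed Klra level in NOD.B10 and 14.5% ± 2.19 (SD, n = 3) in BL/10. In BL/10 the highest share was that of Klra2, with 16.1% ± 1.37 (SD, n = 3), against 2.28% ± 0.793 (SD, n = 3) in NOD.B10. The share of Klra3 was 10.1% ± 1.65 (SD, n = 3) in BL/10 and 1.61% ± 0.153 (SD, n = 3) in NOD.B10. The shares sum to 100% in each library, so a higher share of one gene lowers those of the others, and reads shared by several genes are missing from them.

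**Figure D3:**
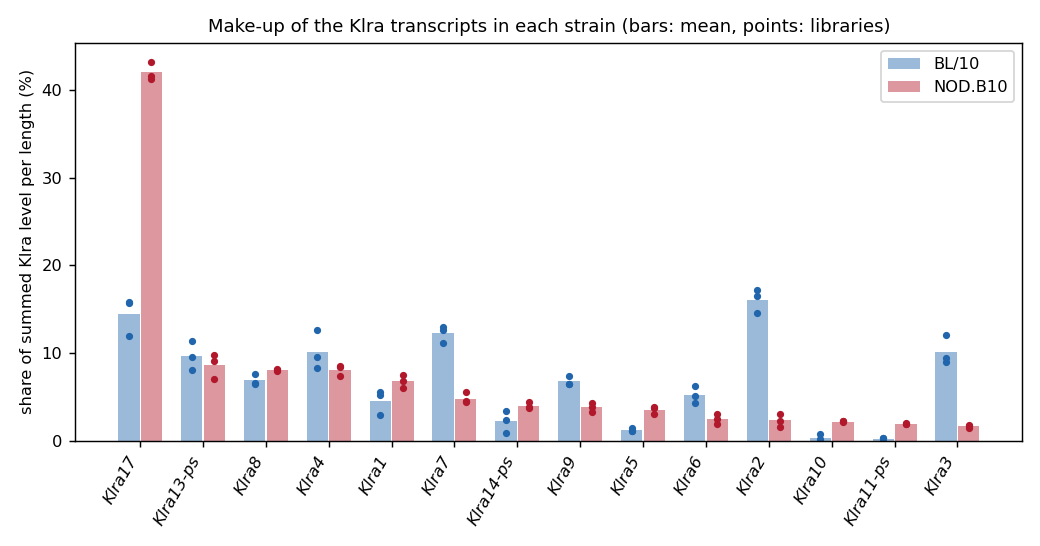
Share of each Klra gene (y axis, %) in the summed Klra level per gene length, with bars for the mean of the 3 libraries of a strain and points for single libraries. Klra17 takes 42.0% in NOD.B10 and 14.5% in BL/10, and Klra2 takes 2.28% and 16.1%.

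Many Klra genes are close copies of each other, and reads that map to several places were not counted. Transcripts were therefore cut into windows of 50 bases, the read length, to find how many windows also occur in a transcript of another gene. The median share of such windows was 13.0% over the 14 Klra genes and 0.308% over the other 21 receptor genes. No window of Klra17, Klra2, Ncr1, Klrd1, Klrk1 or Klrb1f was shared, and 0.655% of those of Klra5 were. The share was 39.8% for Klra10, 33.1% for Klra8, 31.5% for Klra9, 21.6% for Klra11-ps and 20.7% for Klra3. Klra17 and Klra2, which were called in opposite directions, thus hold no exact window of another gene among these transcripts. The values of Klra10, Klra11-ps and Klra3 rest on the part of the gene that differs from its copies there. The transcripts are those of the reference strain, to which the reads of both strains were mapped. Whether alleles or gene copies of NOD.B10 that differ from the reference changed the counts of the receptor genes was not tested.

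**Figure D4:**
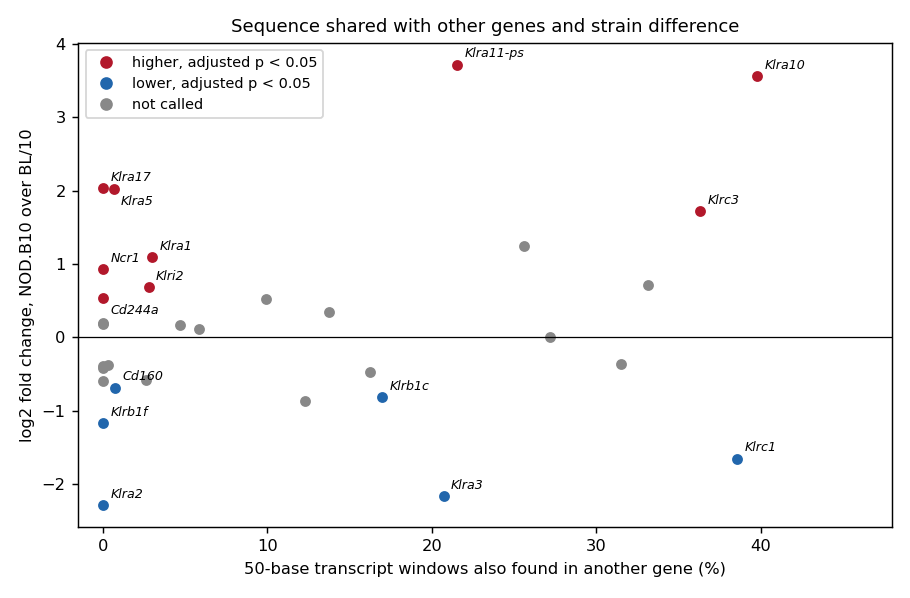
Share of 50-base transcript windows that occur in another gene (x axis, %) and log2 fold change, NOD.B10 over BL/10 (y axis), of the 32 tested genes, with color for the edgeR call. Called genes are found from 0% (Klra17 and Klra2) to 39.8% (Klra10).

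The coding sequences show how little separates some of these genes. Klra10 and Klra9 were identical at 776 of 801 coding bases (96.9%), and Klra3 and Klra9 at 768 of 801 (95.9%). Stretches of the length of 1 read are shown for both pairs, with the bases that differ within a pair in capitals. They run 5′ to 3′ in the coding strand of the GENCODE M21 transcripts, from base 437 to 486 of the coding sequence for the first pair and from base 402 to 451 for the second. Each stretch has the median number of differences of its pair, which was 1 for the first and 2 for the second.
Klra10: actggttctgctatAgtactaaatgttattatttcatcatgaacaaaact
Klra9: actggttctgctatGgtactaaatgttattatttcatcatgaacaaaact
Klra3: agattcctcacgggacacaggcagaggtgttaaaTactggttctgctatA
Klra9: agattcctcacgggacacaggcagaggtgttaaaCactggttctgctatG

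Along the whole coding sequence, 166 of 752 windows were identical between Klra10 and Klra9 and 60 of 752 between Klra3 and Klra9. In these data Klra10 was higher in NOD.B10, Klra3 was lower, and Klra9 did not pass the threshold (2.70 ± 0.120 CPM in NOD.B10 and 3.47 ± 0.843 CPM in BL/10, SD, n = 3).

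The promoters of 4 Klra genes with large fold changes (Klra17 and Klra5, higher in NOD.B10, and Klra3 and Klra2, lower) are shown to compare genes that moved in opposite directions. Each runs from 250 bases before to 50 bases after the start of the gene in RefSeq (GRCm38.p6), 5′ to 3′ on the minus strand, at chr6:129876623-129876922 for Klra17, chr6:129913175-129913474 for Klra5, chr6:130337577-130337876 for Klra3 and chr6:131247313-131247612 for Klra2. The capitals mark the longest run of bases that all 4 share, which has 11 bases.
Klra17: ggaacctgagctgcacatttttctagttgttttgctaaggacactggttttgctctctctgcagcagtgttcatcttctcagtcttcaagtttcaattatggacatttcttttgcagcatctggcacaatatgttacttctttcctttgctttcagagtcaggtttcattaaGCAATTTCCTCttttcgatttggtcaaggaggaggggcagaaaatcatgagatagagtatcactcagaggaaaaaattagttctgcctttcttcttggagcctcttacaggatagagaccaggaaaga
Klra5: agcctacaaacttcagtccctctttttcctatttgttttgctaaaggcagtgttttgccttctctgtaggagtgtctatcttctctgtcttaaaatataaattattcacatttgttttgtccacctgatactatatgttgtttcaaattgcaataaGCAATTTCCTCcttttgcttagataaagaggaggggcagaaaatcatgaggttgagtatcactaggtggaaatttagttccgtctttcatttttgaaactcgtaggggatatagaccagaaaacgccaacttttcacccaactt
Klra3: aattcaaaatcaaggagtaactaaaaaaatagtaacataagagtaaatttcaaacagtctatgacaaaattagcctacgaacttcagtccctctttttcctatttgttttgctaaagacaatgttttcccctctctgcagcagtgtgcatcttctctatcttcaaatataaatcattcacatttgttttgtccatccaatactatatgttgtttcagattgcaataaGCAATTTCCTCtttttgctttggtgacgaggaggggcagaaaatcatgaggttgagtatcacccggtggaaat
Klra2: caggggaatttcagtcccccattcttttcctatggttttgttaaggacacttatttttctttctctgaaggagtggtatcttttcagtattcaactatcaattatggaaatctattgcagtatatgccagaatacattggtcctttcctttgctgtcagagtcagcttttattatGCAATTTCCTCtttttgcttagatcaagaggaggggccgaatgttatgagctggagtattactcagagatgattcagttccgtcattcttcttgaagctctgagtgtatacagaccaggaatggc

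The run GCAATTTCCTC was found on either strand in 0.06% of 32851 RefSeq promoters of this length and in 9 of the 13 Klra promoters among them. The 9 belong to 8 of the 11 Klra genes listed there (Klra17, Klra2, Klra3, Klra4, Klra5, Klra6, Klra8 and Klra9). These 8 genes include higher, lower and uncalled ones. The run was taken from promoters of both higher and lower genes, so this mixture was fixed by the choice of the run. The run was chosen because these promoters share it, and its share among the Klra genes is a description. The sequences are those of the reference strain C57BL/6J, and no sequence of NOD.B10 was examined.

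The Klrb1 genes encode the NKR-P1 receptors, which bind lectin-like proteins of the Clec2 family that are encoded between them. Klrb1c and Klrb1f, both genes of activating receptors, were lower in NOD.B10, and Klrb1a and Klrb1b were not called. Klrb1c (ENSMUSG00000030325, chromosome 6 from 128778485 to 128789215), whose product carries the NK cell antigen NK1.1 in C57BL mice, had 8.37, 5.96 and 7.64 CPM in NOD.B10 and 13.9, 13.8 and 10.9 CPM in BL/10. The libraries did not overlap, and the BL/10 level was 1.76-fold that of NOD.B10 (log2 fold change -0.81, standard error 0.17, adjusted p = 0.0164 in edgeR). The exons of the predicted gene Gm44511 overlap 13.9% of the length of Klrb1c and 26.9% of Klrb1b, where reads cannot be assigned to a single gene. Klrb1f had 3.59 ± 0.782 CPM in the NOD.B10 libraries against 8.09 ± 2.59 CPM in those of BL/10 (SD, n = 3 each) (log2 fold change -1.17, standard error 0.27, adjusted p = 0.0249 in edgeR). Clec2g, which encodes a ligand of the Klrb1f product, was higher in NOD.B10, with 3.77, 4.18 and 5.28 CPM against 2.17, 1.68 and 1.42 CPM in BL/10 (log2 fold change 1.32, standard error 0.24, adjusted p = 0.00907 in edgeR). Clec2d, Clec2i and Clec2f, the other Clec2 genes tested in this stretch of chromosome 6, were not called. Clec2i had 34.9 ± 1.42 CPM in the NOD.B10 libraries against 35.9 ± 11.4 CPM in those of BL/10 (SD, n = 3 each, adjusted p = 0.90 in edgeR), and Clec2f had 2.76 ± 0.704 CPM against 1.39 ± 0.538 CPM (SD, n = 3 each, adjusted p = 0.0729 in edgeR). Bulk RNA does not show which cells hold receptor or ligand.

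Klrb1 itself, which encodes an inhibitory receptor (NKR-P1G), failed the filter on low counts. It was counted 2, 0 and 2 times in the NOD.B10 libraries, against 13, 7 and 5 times in those of BL/10, so that the summed level in BL/10 was 6.23 times that in NOD.B10, with an interval from 2.15 to 24.6. Klrb1b, which encodes an inhibitory receptor of the ligand Clec2d, had the same mean of 4.71 CPM in both strains (SD 0.527 in NOD.B10 and 0.819 in BL/10, n = 3), with a log2 fold change within its standard error of 0.19. Klrb1a had 2.28 ± 0.637 CPM in the NOD.B10 libraries against 1.57 ± 0.631 CPM in those of BL/10 (SD, n = 3 each) (adjusted p = 0.313 in edgeR). The pseudogene Klrb1-ps1 had no count in any library, which allows up to 0.201 CPM in the library with the highest floor.

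The NKG2 receptors pair with CD94 and bind the MHC class Ib molecule Qa-1. Klrc1 encodes the inhibitory NKG2A, and Klrc2 and Klrc3 encode the activating NKG2C and NKG2E. Klrc1 (ENSMUSG00000030167, chromosome 6 from 129666015 to 129678973) had 4.78, 3.75 and 6.01 CPM in NOD.B10 and 14.6, 18.1 and 13.2 CPM in BL/10. The lowest BL/10 library had more than the highest NOD.B10 library, and the BL/10 level was 3.14-fold that of NOD.B10 (log2 fold change -1.65, standard error 0.20, adjusted p = 0.00179 in edgeR). Klrc3 (ENSMUSG00000033027, chromosome 6 from 129639064 to 129643337) went the other way, with 2.15, 1.60 and 1.74 CPM in NOD.B10 and 0.434, 0.671 and 0.568 CPM in BL/10 (log2 fold change 1.72, standard error 0.27, adjusted p = 0.00514 in edgeR). Klrc3 had 26 to 36 counts per library in NOD.B10 and 8 to 10 in BL/10, so its value rests on few reads. Klrc2 had 2.62 ± 0.578 CPM in the NOD.B10 libraries against 3.64 ± 1.19 CPM in those of BL/10 (SD, n = 3 each), with overlapping libraries (adjusted p = 0.301 in edgeR).

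The partner of these receptors, Klrd1 (CD94), was the most abundant gene of the set per length in BL/10 (24.0 RPKM, the CPM per kilobase of gene length). It had 25.1, 20.5 and 23.7 CPM in NOD.B10 and 34.9, 31.7 and 25.7 CPM in BL/10, all NOD.B10 libraries being lower, but Klrd1 was not called (log2 fold change -0.41, standard error 0.14, adjusted p = 0.0787 in edgeR). Within libraries, the ratio of Klrc1 to Klrd1 per length was 0.135 ± 0.0251 in the NOD.B10 libraries against 0.324 ± 0.0502 in those of BL/10 (SD, n = 3 each), and that of Klrc3 to Klrd1 was 0.138 ± 0.0108 (SD, n = 3) and 0.0323 ± 0.00929 (SD, n = 3). NKG2A and NKG2E transcripts were thus about equal per length in NOD.B10, whereas Klrc1 was in excess in BL/10 (2.44 RPKM of Klrc1 and 2.49 RPKM of Klrc3 in NOD.B10, 7.72 and 0.758 RPKM in BL/10). H2-T23, the gene of Qa-1, had 234 ± 32.1 CPM in the NOD.B10 libraries against 219 ± 13.6 CPM in those of BL/10 (SD, n = 3 each), a difference within the spread of the replicates (adjusted p = 0.624 in edgeR).

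The Klrc genes also share sequence, and 38.6% of the windows of Klrc1 and 36.3% of those of Klrc3 occur in another gene, mostly in Klrc2. A read-length stretch is shown for the genes called in opposite directions, with differing bases in capitals. It covers coding bases 402 to 451 of Klrc1 and 333 to 382 of Klrc3, 5′ to 3′, and has the median of 3 differences.
Klrc1: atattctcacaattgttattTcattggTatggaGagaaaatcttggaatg
Klrc3: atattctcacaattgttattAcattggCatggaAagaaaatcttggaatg

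Between Klrc1 and Klrc3, 45 of 448 windows of the coding sequence were identical. Both calls held in all 6 fits without a replicate, with an adjusted p of at most 0.0127 for Klrc1 and 0.0282 for Klrc3 in edgeR.

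Klrk1 encodes NKG2D, an activating receptor of stress-induced ligands that signals through DAP10 (Hcst). It had 32.9, 22.4 and 23.8 CPM in NOD.B10 and 38.6, 47.5 and 32.8 CPM in BL/10. The highest NOD.B10 library was just above the lowest BL/10 library, and Klrk1 was not called (log2 fold change -0.59, standard error 0.18, adjusted p = 0.0661 in edgeR), while DESeq2 gave an adjusted p of 0.0269. The adaptor gene Hcst was lower in NOD.B10 (log2 fold change -0.50, standard error 0.12, adjusted p = 0.0295 in edgeR), and the ratio of Klrk1 to Hcst per length was 0.181 ± 0.0217 in the NOD.B10 libraries against 0.194 ± 0.0301 in those of BL/10 (SD, n = 3 each), a difference within the spread of the replicates. H60b, which encodes an NKG2D ligand, was higher in NOD.B10, with 2.39, 2.21 and 1.91 CPM against 0.272, 0.134 and 0.114 CPM in BL/10 (adjusted p = 0.000567 in edgeR). The BL/10 values of H60b rest on 5, 2 and 2 counts, and the ratio of the summed counts was 12.3 with an interval from 6.23 to 27.5. Ulbp1, another ligand gene, was not called (3.96 ± 0.0307 CPM in NOD.B10 and 4.62 ± 0.723 CPM in BL/10, SD, n = 3). Of the 16 receptor ligand genes that were tested, 2 were higher (H60b and Clec2g) and none lower, a share of 12.5% that does not exceed the 17.3% of all genes tested.

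Klre1 forms receptors with either Klri1, which is inhibitory, or Klri2, which is activating. Klri2 (ENSMUSG00000043932, chromosome 6 from 129729041 to 129740484) was higher in NOD.B10, with 15.3, 11.6 and 13.8 CPM against 9.34, 9.05 and 6.93 CPM in BL/10. The libraries did not overlap (log2 fold change 0.68, standard error 0.16, adjusted p = 0.0272 in edgeR), but the call was lost in 4 of the 6 fits without a replicate, with adjusted p up to 0.108 without NOD.B10 replicate 1. Klre1 and Klri1 overlapped between the strains and were not called (log2 fold changes of -0.37 and 0.11). The ratio of Klri2 to Klre1 per length was 1.53 ± 0.240 in the NOD.B10 libraries against 0.717 ± 0.0622 in those of BL/10 (SD, n = 3 each). Klrg1, an inhibitory receptor of cadherins found on mature NK and effector T cells, had 5.17 ± 1.69 CPM in the NOD.B10 libraries against 6.81 ± 1.29 CPM in those of BL/10 (SD, n = 3 each) (adjusted p = 0.309 in edgeR). Klrg2 had 3 to 6 counts in each library and was not tested.

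Outside the Klr genes, Ncr1 and Cd244a were higher in NOD.B10, Cd160 was lower, and Cd226 and Crtam were not called. Ncr1 (ENSMUSG00000062524, chromosome 7 from 4337724 to 4345164) encodes NKp46, the activating receptor used as a defining marker of mouse NK cells. It had 22.4, 17.0 and 21 CPM in NOD.B10 and 11.4, 12.5 and 7.90 CPM in BL/10. All NOD.B10 libraries exceeded the BL/10 libraries, with a fold change of 1.90 (log2 fold change 0.93, standard error 0.19, adjusted p = 0.0153 in edgeR). The call was lost without NOD.B10 replicate 1 (adjusted p = 0.0660) or replicate 3 (0.0550). Ncr1 and Klrb1c, both markers of NK cells in C57BL mice, were thus called in opposite directions, and their ratio per length was 5.30 ± 0.162 in the NOD.B10 libraries against 1.57 ± 0.177 in those of BL/10 (SD, n = 3 each).

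The promoter of Ncr1 is shown because Ncr1 was the most strongly raised receptor gene outside the NK gene complex. It is the RefSeq sequence (GRCm38.p6) at chr7:4337465-4337764 on the plus strand, 5′ to 3′, and the capitals mark TGTGGTT, a core sequence bound by Runx factors, which act in the development of NK cells and cytotoxic T cells.
Ncr1: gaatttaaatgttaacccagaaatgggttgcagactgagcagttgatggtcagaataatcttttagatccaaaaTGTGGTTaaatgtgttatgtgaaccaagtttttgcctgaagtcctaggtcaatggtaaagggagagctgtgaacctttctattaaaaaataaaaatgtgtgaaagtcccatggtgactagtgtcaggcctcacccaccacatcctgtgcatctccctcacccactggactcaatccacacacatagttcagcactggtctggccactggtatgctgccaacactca

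On either strand, TGTGGTT occurs in 5.27% of all 32851 promoters and in 7 of the 33 promoters of receptor genes (21.21%). Some genes have several promoters, and the 7 belong to 5 of the 26 receptor genes found in the table (Cd160, Klra1, Klre1, Klrk1 and Ncr1). Of these, Ncr1 and Klra1 were higher in NOD.B10, Cd160 was lower and the others were not called.

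Cd244a (ENSMUSG00000004709, chromosome 1 from 171559193 to 171609746) encodes the receptor 2B4, which binds CD48. It had 43.2, 37.0 and 30.0 CPM in NOD.B10 and 26.9, 25.3 and 23.9 CPM in BL/10, without overlap (log2 fold change 0.53, standard error 0.14, adjusted p = 0.0370 in edgeR). The BL/10 libraries were close to each other and the NOD.B10 libraries spread more widely, and the call was lost in 4 of the 6 fits without a replicate (adjusted p up to 0.126 without NOD.B10 replicate 1). Cd48 was not called (adjusted p = 0.486 in edgeR). Cd160 (ENSMUSG00000038304, chromosome 3 from 96798763 to 96829351), whose product binds HVEM on other cells, had 7.30, 5.59 and 5.51 CPM in NOD.B10 and 10.2, 10.7 and 8.75 CPM in BL/10 (log2 fold change -0.68, standard error 0.16, adjusted p = 0.0268 in edgeR). Its call was lost in 3 of the 6 fits without a replicate, with adjusted p up to 0.0881 without NOD.B10 replicate 3.

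Cd226 encodes DNAM-1, an activating receptor of NK and T cells that binds CD155 and nectin-2. It was abundant in both strains, with 40.3, 43.9 and 39.4 CPM in NOD.B10 and 46.9, 30.6 and 31.7 CPM in BL/10. BL/10 replicate 1 was above all other libraries, and the difference was not called (log2 fold change 0.18, standard error 0.17, adjusted p = 0.487 in edgeR). Without BL/10 replicate 1, which held the most pancreas transcripts and is the BL/10 library labelled 26 weeks, Cd226 was higher in NOD.B10 (log2 fold change 0.39, adjusted p = 0.0287 in edgeR). Crtam, a receptor of activated NK and CD8 T cells that binds CADM1, had 3.65, 3.99 and 7.02 CPM in NOD.B10 and 5.05, 4.22 and 3.58 CPM in BL/10, with NOD.B10 replicate 3 apart from the rest (adjusted p = 0.667 in edgeR).

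Transcription factors, granule proteins, cytokines and other genes of the NK lineage were then examined beside the receptors. Of 28 such genes, 26 were tested, with 4 higher in NOD.B10 (Cd27, Gzmk, Txk and Itga1) and 2 lower (Itgam and Ccl5), which is 23.1% against 17.3% of all genes tested. Eomes, a transcription factor that defines conventional NK cells, had 12.5 ± 1.49 CPM in the NOD.B10 libraries against 9.62 ± 1.90 CPM in those of BL/10 (SD, n = 3 each) (log2 fold change 0.38, standard error 0.17, adjusted p = 0.150 in edgeR). Tbx21, which encodes T-bet, gave 0.39 on the log2 scale (standard error 0.16, adjusted p = 0.130 in edgeR). Il2rb, the receptor chain for interleukin-2 and related cytokines, had 79.4 ± 9.38 CPM in the NOD.B10 libraries against 78.4 ± 8.45 CPM in those of BL/10 (SD, n = 3 each). The granule genes Gzma and Prf1 were not called (adjusted p = 0.605 and 0.120 in edgeR). Summed over the list, the ranges of the strains overlapped (600.4 to 726 CPM in NOD.B10 and 629 to 703 CPM in BL/10).

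Cd27, Gzmk and Txk are also used by T cells, and Itgam is abundant in neutrophils. T cell markers were higher and neutrophil markers lower in NOD.B10, as given above, and the part of these cells in the calls was not tested. The genes of signaling adaptors were also called in both directions. Of 17 tested, 6 were higher (among them Lat, Zap70, Cd247, Fyn and Sh2d1a) and 4 lower (among them Fcer1g, Hcst and Tyrobp), which is 58.8% against 17.3% of all genes tested. The T cell receptor zeta chain gene Cd247 had 65.2 ± 9.51 CPM in the NOD.B10 libraries against 23.9 ± 7.47 CPM in those of BL/10 (SD, n = 3 each) (log2 fold change 1.45, standard error 0.22, adjusted p = 0.00477 in edgeR). Tyrobp encodes DAP12, the adaptor of the activating Ly49 receptors, and is also abundant in myeloid cells. It had 291 ± 42.5 CPM in the NOD.B10 libraries against 413 ± 49.5 CPM in those of BL/10 (SD, n = 3 each) (log2 fold change -0.51, standard error 0.14, adjusted p = 0.0482 in edgeR). Of 10 tested markers of innate lymphoid cells and innate-like T cells, 4 were higher (Il7r, Gata3, Rora and Itga1) and none lower, against 9.11% of all genes tested that were higher. Itga1 is also in the list of NK lineage genes. The part of other T cells, whose markers were higher in NOD.B10, in these 4 calls was not tested. None of 12 B cell markers was called, and 1 of 12 erythroid markers was lower.

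Per length, the order of the receptor genes differed between the strains at the top. In BL/10 the most abundant were Klrd1 (24.0 RPKM), Cd226 (15.4 RPKM), Klrc1 (7.72 RPKM), Klri1 (7.15 RPKM) and Ncr1 (6.88 RPKM), and in NOD.B10 Klra17 (23.7 RPKM), Klrd1 (18 RPKM), Cd226 (17.5 RPKM), Ncr1 (13.1 RPKM) and Klri1 (7.76 RPKM). Neighbours in these orders were not tested against each other. The calls of Klra17, Klra2, Klra3 and Klrc1 held in every fit at this threshold. Those of Klra10, Klra11-ps and Klrc3 held in every fit in which the gene was tested. That of Klra5 held in all but the fit on the libraries labelled 26 weeks (log2 fold change 1.68). Klra10, Klra11-ps, Klrc3 and Klra5 met the filter in all libraries of NOD.B10 only, where they are higher. With 10 counts required in every library they were not tested, so that filter gives no check on their calls. The calls of Klra1, Klri2, Ncr1, Cd244a, Klrb1c, Klrb1f and Cd160 each depended on single libraries.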

How the data were processed

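RNA from 6 spleens (3 of NOD.B10 and 3 of BL/10 females) was read in single-end runs of 50 bases. The authors deposited raw read counts per gene and library, without normalization. According to the file header they counted reads on exons with featureCounts version 1.5.1 and Ensembl annotation 84 (GRCm38). The command has no option for strand or for reads that map to several places, and by default the tool ignores strand and leaves such reads out. The paper names Tophat2 for mapping and the submitters' processing notes name HISAT2 version 2.0.5. The header also names Myd88-deficient libraries (not analysed here). Reads of both strains were mapped to the C57BL/6J reference. Gene lengths in bases are deposited in the same table. Of 47729 gene identifiers, 47224 matched a symbol of GENCODE M21.

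Libraries were assigned to strains by the sample description and column name. For BL/10 replicate 3 only the library number and strain of the description match the column. The members and gene lists were chosen with earlier results of these data known, as was the use of the column names for the strain, and the lists of plasmacytoid dendritic cell and of monocyte genes were added after the values of Klra17 and Klra2 were seen.

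The main test was edgeR's quasi-likelihood test (edgeR version 4.0.16 in R version 4.3.3) after filterByExpr and TMM normalization, for NOD.B10 over BL/10, at a Benjamini-Hochberg adjusted p of 0.05 over 15330 genes. DESeq2 (version 1.42.0) and limma (version 3.58.1) were alternatives. A standard error is the log2 fold change divided by the root of its F value. CPM values are TMM-normalized, and RPKM is CPM per kilobase of the deposited gene length. Ratios of summed counts have exact 95% intervals, conditional on the total, scaled by normalized library size. The floor of 3 counts per library covers counting error only and corresponds to 0.163 to 0.201 CPM. All receptor genes are named, and at most 6 called genes of each list by smallest p. Further genes are named where a result turns on them, namely the called adaptor genes Hcst and Tyrobp and uncalled genes. The fit was tested on simulated counts for this comparison (15147 genes run). The changed genes were drawn only from those with a mean above 2 CPM over all libraries. Of these, 76 of 100 genes changed by 1 on the log2 scale and 100 of 100 changed by 2 were found, and 16 unchanged genes were called. Klra10, Klra11-ps, Klrc3 and Klra5 have means below that level, so these rates do not apply to them. Replicates of a strain differed by more than counting error (the lowest chi-square divided by its degrees of freedom was 13.5), and no libraries were counted as 1 sample. Windows and promoters were taken from GENCODE M21 transcripts and the RefSeq promoter table (26 of 35 genes listed), with Biopython version 1.88 for alignments. Transcripts, not the genome, were searched, with exact matches on both strands.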

Additional observations from a re-analysis of the deposited data

How the results depend on the processing

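The number of receptor genes called was 15 (9 higher and 6 lower) with RLE size factors, upper-quartile normalization, normalization without hemoglobin, immunoglobulin and pancreas genes, and the replicate block. With these 4 settings the share of all genes called ran from 17.0% to 18.8%. The correlations of same-numbered deviations were 0.0679, 0.302 and -0.0768. With 3 libraries per strain they cannot settle whether the numbers of the titles pair the samples. DESeq2 called 17 genes, the likelihood ratio test and a filter of 1 count 18 each, and limma-voom 16. The share of all genes called was 17.4% with DESeq2, 21.3% with the likelihood ratio test, 11.5% with the filter of 1 count and 21.8% with limma-voom. With 10 counts required in every library, 5 genes were higher, because 4 low genes were not tested, and 14.8% of all genes tested were called. With the libraries labelled 26 weeks (3 NOD.B10 and 1 BL/10, which is assumed to vary like the others), 7 genes were called, 4 higher and 3 lower, and at an adjusted p under 0.01, 8 genes, 5 higher and 3 lower. Without single replicates, between 9 and 16 genes were called in all (9 without BL/10 replicate 2, 16 without BL/10 replicate 1), between 5 and 10 higher (5 without NOD.B10 replicate 1) and between 3 and 8 lower (3 without NOD.B10 replicate 3 or BL/10 replicate 2). In the same fits the share of all genes called ran from 8.12% to 26.3%. The cause of these changes was not tested.

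No called gene changed direction. Among uncalled genes, the log2 fold change of Klrb1b was 0.026 with upper-quartile normalization, 0.056 with limma-voom, 0.0079 with the replicate block, and 0.088 to 0.14 without NOD.B10 replicate 2 or BL/10 replicate 1. With the libraries labelled 26 weeks it was -0.00089 for Klrb1a, -0.40 for Klri1, -0.21 for Klra4, -0.043 for Crtam and -0.19 for Cd226. Without BL/10 replicate 3 it was -0.084 for Klri1 and -0.040 for Klra4, and without NOD.B10 replicate 3 it was -0.16 for Crtam. Over all fits without a single replicate it ranged from -0.12 to 0.14 for Klrb1b, -0.084 to 0.46 for Klri1, -0.040 to 0.40 for Klra4 and -0.16 to 0.36 for Crtam. The median share of windows found in another gene was 2.98% with 50-base and 7.36% with 36-base windows. With a floor of 10 counts per library, 6 genes in place of 4 had a strain at or under the floor. At this depth, genes at or below about 1 CPM in both strains (Klra10, Klra11-ps, Klrb1 and Klrg2) rest on fewer than 20 counts per library. The BL/10 values of Klra5 (16, 11 and 8 counts) and Klrc3 (8, 10 and 10 counts) do so as well.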

Other observations

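The genes between and beside the receptors on chromosome 6 were also compared. From the start of Klrb1a to the end of Klra2 (chromosome 6 from 128609227 to 131247362 of GRCm38), 46 genes were tested, of which 26 are receptor genes. Of the other 20 genes, 4 were higher and 4 lower in NOD.B10, a share of 40% against 17.3% of all genes tested. The lower ones were Clec12a, Clec1b, Clec7a and Olr1, which encode lectin-like receptors of myeloid cells, platelets and endothelium. Clec12a had 42.7 ± 2.40 CPM in the NOD.B10 libraries against 140 ± 22.8 CPM in those of BL/10 (SD, n = 3 each). Among the higher ones was Clec2g. Neutrophil marker genes were lower in NOD.B10 as well (12 of 14), and their part in these differences was not tested.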
